A study of Mus musculus with 36 samples.

Results

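The 10 genes described here are ligands, receptors and target genes of bone morphogenetic protein (BMP) signalling and genes of the dorsal midline of the forebrain, chosen by name out of 46603 genes in the count tables: *Bmp4*, *Bmp6*, *Bmp7*, *Bmpr1a*, *Bmpr1b*, *Id1*, *Id3*, *Msx1*, *Lmx1a* and *Ttr*. Their RNA was measured by sequencing in mouse embryos that carried different doses of *Chd8*, which encodes a chromatin remodelling protein associated with autism. At embryonic day 12.5 (E12.5), the neocortex of single embryos was sequenced for 4 genotypes, with 3 libraries each: wild type (*Chd8* +/+), heterozygous for a null allele (*Chd8* +/-), homozygous for a neo allele (*Chd8* neo/neo) and neo over null (*Chd8* neo/-). The neo allele carries a neomycin cassette in an intron and lowers expression, and the null allele was made by deletion in the germ line with a ubiquitous Cre. At E10.5, telencephalic vesicles of 2 embryos were pooled for each library, with 3 Ctrl libraries that combined *Chd8* f/f and *Chd8* f/+ embryos and 3 conditional knockout (cKO) libraries of *sox1*-Cre *Chd8* f/f embryos. *Sox1*-Cre recombines in early neural progenitors, so cells outside the neural lineage keep the gene. All embryos were on a C57Bl/6J background, and each library was read in 2 sequencing runs, whose counts were summed.

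BMPs are secreted ligands that bind a complex of type I and type II receptors, which phosphorylates SMAD proteins that then enter the nucleus with SMAD4. Genes of the Id family and the homeobox gene *Msx1* are well-known direct or early targets. In the embryonic forebrain, BMP ligands are made by the roof plate and later by the cortical hem and choroid plexus, at the dorsal midline, where they pattern the adjacent tissue. LMX1A is a transcription factor of the roof plate and cortical hem, and *Ttr*, which encodes transthyretin, is a marker of the choroid plexus epithelium.

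The promoters of genes on which the results turn are shown first, as the 250 bases before the start site in RefSeq on GRCm38.p6. *Bmp4* and *Lmx1a* are shown because they were called higher in cKO libraries, and *Bmp6* and *Id3* because their levels went together in the E12.5 libraries. Capitals mark GTCTG or its reverse complement CAGAC, the box bound by SMAD proteins, searched on both strands. *Bmp4* lies at chr14:46390670-46390919 (minus strand), *Lmx1a* at chr1:167689308-167689557 (plus strand), *Bmp6* at chr13:38345466-38345715 (plus strand) and *Id3* at chr4:136143572-136143821 (plus strand).
Bmp4: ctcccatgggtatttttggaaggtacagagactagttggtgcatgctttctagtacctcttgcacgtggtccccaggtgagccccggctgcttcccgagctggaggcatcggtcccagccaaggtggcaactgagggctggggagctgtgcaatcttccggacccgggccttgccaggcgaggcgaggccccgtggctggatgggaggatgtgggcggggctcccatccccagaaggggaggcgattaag
Lmx1a: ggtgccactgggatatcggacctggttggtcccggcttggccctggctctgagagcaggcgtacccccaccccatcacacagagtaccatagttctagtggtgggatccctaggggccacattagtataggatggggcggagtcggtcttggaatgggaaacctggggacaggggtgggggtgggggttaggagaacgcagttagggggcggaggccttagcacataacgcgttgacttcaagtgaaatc
Bmp6: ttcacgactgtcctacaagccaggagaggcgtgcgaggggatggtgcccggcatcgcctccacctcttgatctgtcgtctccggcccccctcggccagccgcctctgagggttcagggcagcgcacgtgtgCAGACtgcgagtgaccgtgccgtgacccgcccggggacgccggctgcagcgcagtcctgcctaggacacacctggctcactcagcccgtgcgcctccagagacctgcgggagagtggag
Id3: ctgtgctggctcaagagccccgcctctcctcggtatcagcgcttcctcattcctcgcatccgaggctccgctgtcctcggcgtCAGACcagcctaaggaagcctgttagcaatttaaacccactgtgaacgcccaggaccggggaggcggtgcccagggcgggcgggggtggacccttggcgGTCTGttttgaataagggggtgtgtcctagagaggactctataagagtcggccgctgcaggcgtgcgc

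The *Id3* promoter held 2 boxes, a CAGAC that began 167 bases and a GTCTG that began 68 bases before the start site. The *Bmp6* promoter held 1 CAGAC, which began 119 bases before the start, and those of *Bmp4* and *Lmx1a* held neither form. Over all 32851 promoters of this length, 42.2% held at least 1 box, so its presence is common. The GC-rich SMAD motif GGCGCC, which reads the same on both strands, was in 9.59% of all promoters and in 1 of the 9 windows found for 7 of the 10 genes, that of *Bmpr1a*. *Bmp7*, *Id1* and *Ttr* had no entry. The GC content of these windows was 63.2% for *Bmp4*, 59.2% for *Lmx1a*, 68.8% for *Bmp6* and 62.8% for *Id3*, against a median of 52.4% over all promoters. In the annotation used for the counts, *Id3* begins at chr4:136143497 and *Lmx1a* at chr1:167689237, before the windows shown. Those windows thus lie inside the counted genes, and the annotations place these start sites differently. The motif matches are descriptions of the sequence, and binding was not measured.

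The E12.5 libraries held from 38774591 to 61051667 counts and those of E10.5 from 49632937 to 68488879. Levels are given as CPM, a gene's count relative to its library total, scaled within each age by the trimmed mean of M-values (TMM). *Chd8* itself was at 235 to 239 CPM in +/+, 165 to 170 in +/-, 203 to 213 in neo/neo and 142 to 158 in neo/- libraries, and at 160 to 184 in Ctrl and 116 to 125 in cKO libraries, without overlap between any mutant group and its control. Counts were taken over the whole gene, of which Cre removes 1 exon, so they read the deletion only in part. For the neo allele, the paper describes aberrant splicing of transcripts into the cassette. It reports less *Chd8* transcript by RT-PCR in younger embryos, and less CHD8 protein at E12.5, in neo/neo than in +/-. The *Chd8* counts, higher in neo/neo than in +/- libraries, therefore do not order the genotypes by dose of the protein. The neocortical progenitor genes *Emx1* and *Pax6* were present in every library. The E12.5 libraries, labelled cortex, also held ventral telencephalic genes: *Dlx1* was at 191 to 258 CPM and *Nkx2-1* at 55.6 to 99.5 CPM over the 12 libraries. One library stood apart: *Chd8* +/- replicate 2 had 159 CPM of the thalamic gene *Tcf7l2*, against 24.3 to 38.2 CPM in the other E12.5 libraries.

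**Figure D1:**
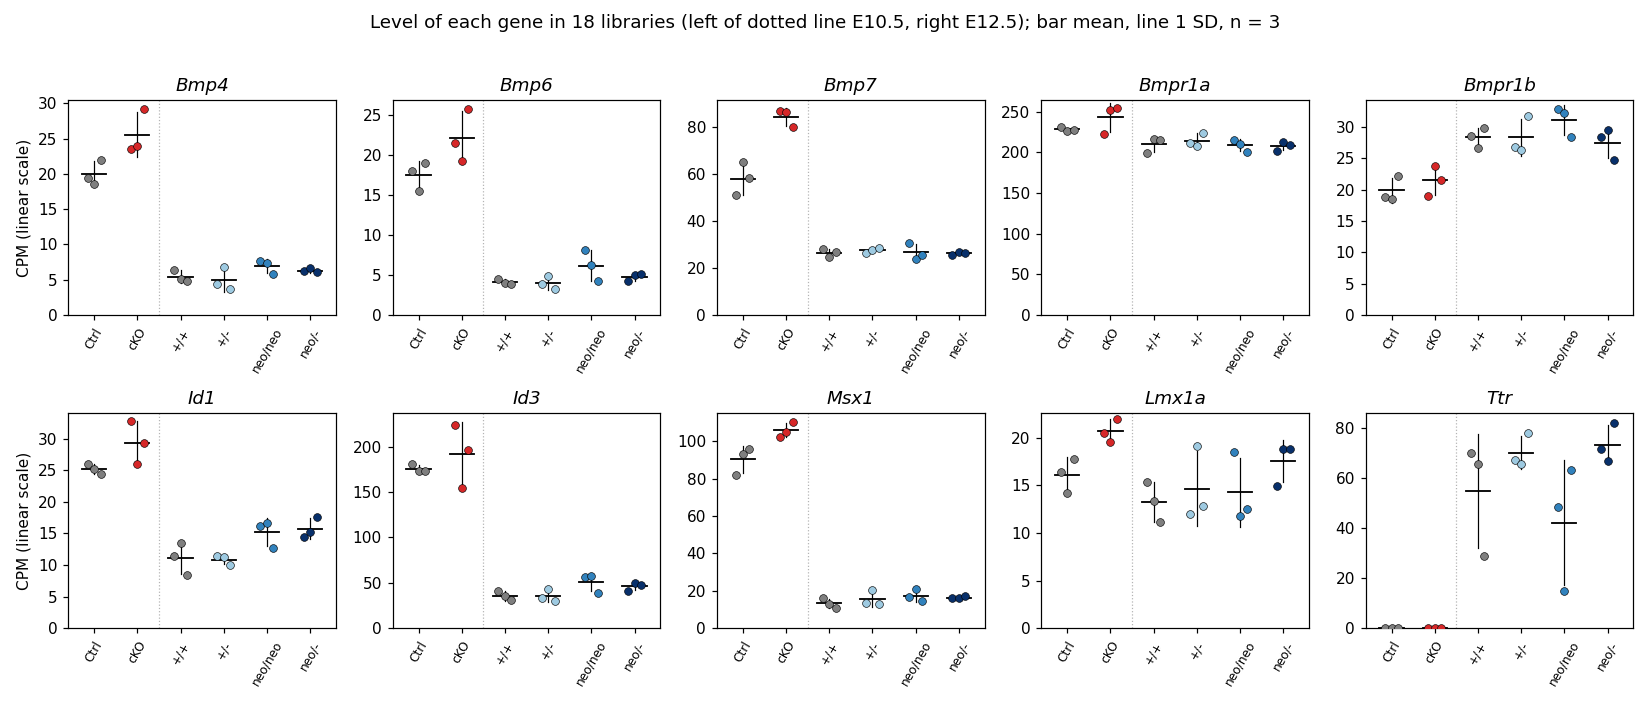
Levels of the 10 genes in CPM (linear axis from 0) in the 18 libraries, grouped by age and genotype, with points for libraries, bars for means and lines for 1 SD (n = 3). All 3 cKO libraries lie above all 3 Ctrl libraries for *Bmp4*, *Bmp6*, *Bmp7*, *Id1*, *Msx1* and *Lmx1a*, whereas at E12.5 the genotypes overlap for nearly every gene.

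The first comparison asked how loss of *Chd8* from neural progenitors at E10.5 altered these genes. *Bmp7*, *Bmp4* and *Lmx1a* were higher in cKO than in Ctrl libraries, by 1.45-fold, 1.28-fold and 1.28-fold. None of the 10 was called lower. Of the 9 genes tested, 3 were called higher (edgeR's quasi-likelihood test, adjusted p under 0.05), where 5.75% of all 18435 genes tested were called higher. All 9 fitted changes were positive, with a median log2 fold change of 0.23 against -0.0019 over all genes tested. For 6 of the 9, every cKO library was above every Ctrl library, a pattern seen in 15.7% of all genes tested. The genes were chosen with earlier results of these data known, so these shares are descriptions and not a test of the set.

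Among the ligands, *Bmp7* (chr2:172868012-172940321) changed most. Its Ctrl libraries were at 51.1, 65.0 and 58.1 CPM and its cKO libraries at 87.0, 86.2 and 80.0 CPM. The lowest cKO library was therefore above the highest Ctrl library. In log2 the change was 0.54 ± 0.08 (SE), with an adjusted p of 0.00312 by edgeR, and the call was kept in 11 of 11 alternative analyses. *Bmp4* (chr14:46383520-46390669), a ligand of the roof plate, was at 19.5, 18.5 and 22 CPM in Ctrl and at 23.6, 24 and 29.2 CPM in cKO libraries. These groups did not overlap, but Ctrl replicate 3 came close to the 2 lower cKO libraries. The log2 fold change was 0.36 ± 0.10 (SE), with an adjusted p of 0.0444 by edgeR. *Bmp6* (chr13:38345716-38499728) was at 18, 15.5 and 19 CPM in Ctrl and at 21.5, 19.3 and 25.7 CPM in cKO libraries. Its log2 fold change was 0.34 ± 0.12 (SE), which did not pass the test (adjusted p = 0.0816 by edgeR).

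The calls of *Bmp4* and *Lmx1a* were less secure than that of *Bmp7*. Each was kept in 6 of 11 alternative analyses. The *Bmp4* call was lost when Ctrl replicate 1, 2 or 3 or cKO replicate 2 or 3 was left out (adjusted p = 0.105, 0.0812, 0.0534, 0.0972 and 0.182, edgeR). The *Lmx1a* call was lost without Ctrl replicate 1 or 2 or any 1 of the cKO replicates (adjusted p = 0.0609, 0.0673, 0.0756, 0.0935 and 0.137, edgeR). *Bmp7* was the 1 gene of the 10 called without cKO replicate 2, cKO replicate 3 or Ctrl replicate 1. Without Ctrl replicate 2, *Bmp7* and *Msx1* (adjusted p = 0.0443, edgeR) were called.

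The receptor genes moved little. *Bmpr1a* (chr14:34410734-34503341), a type I receptor gene used widely in the early embryo, was at 231, 227 and 227 CPM in Ctrl and at 222, 253 and 254 CPM in cKO libraries, so that the groups overlapped. Its log2 fold change was 0.09, with a 95% interval from -0.05 to 0.23. *Bmpr1b* (chr3:141837136-142169425), the other type I receptor gene among the 10, was at 18.8, 18.6 and 22.2 CPM in Ctrl and at 19, 23.8 and 21.6 CPM in cKO libraries. Its log2 fold change was 0.11, with a 95% interval from -0.12 to 0.34.

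Among the targets, *Msx1* (chr5:37820485-37824583) was at 81.9, 93.2 and 95.8 CPM in Ctrl and at 103, 105 and 110.04 CPM in cKO libraries. These groups were apart, yet the log2 fold change of 0.23 ± 0.07 (SE) fell just short of the threshold (adjusted p = 0.0526 by edgeR). *Id1* (chr2:152736251-152737410), an inhibitor of DNA binding by bHLH factors, was at 25.9, 25.2 and 24.4 CPM in Ctrl and at 32.8, 26 and 29.3 CPM in cKO libraries, with an adjusted p of 0.132 by edgeR. *Id3* (chr4:136143497-136145755), of the same family, was at 181, 173 and 173 CPM in Ctrl libraries. Its cKO libraries were at 224, 154 and 197 CPM, on both sides of the controls, and its log2 fold change was 0.13 with a 95% interval from -0.15 to 0.40.

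Of the dorsal midline genes, *Lmx1a* (chr1:167689237-167848741) was at 16.4, 14.2 and 17.8 CPM in Ctrl and at 20.5, 19.5 and 22 CPM in cKO libraries. All cKO libraries were above the controls. Its change on the log2 scale was 0.36 ± 0.10 (SE), with an adjusted p of 0.0377 by edgeR. *Ttr* (chr18:20665250-20674324) had 7, 3 and 14 counts in the Ctrl and 2, 3 and 6 counts in the cKO libraries, which was too few for the filter on low counts. Over the groups, these 11 cKO and 24 Ctrl counts gave a ratio of 0.382, with a 95% interval for counting error alone from 0.169 to 0.810.

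**Figure D2:**
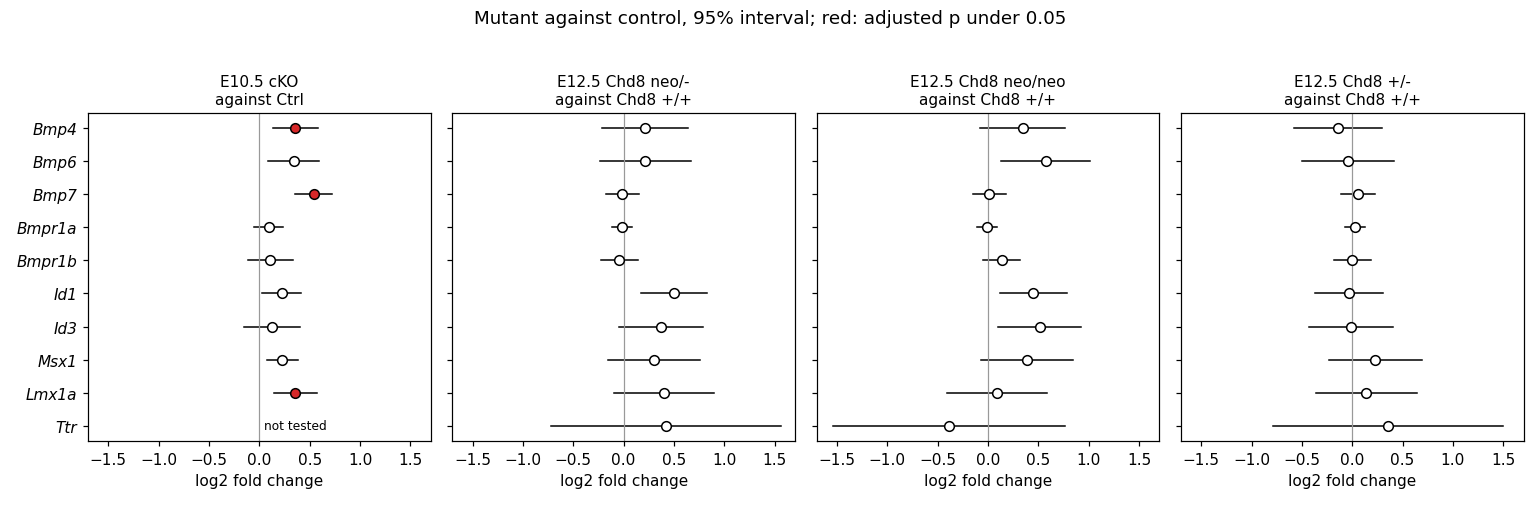
Log2 fold changes of the 10 genes, with 95% intervals, for each mutant group against its own control. Red points passed an adjusted p of 0.05: *Bmp4*, *Bmp7* and *Lmx1a* in the E10.5 cKO panel and none in the 3 E12.5 panels.

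In a wider list of 57 genes of the pathway and of the dorsal midline, which includes the 10, 6 genes were higher and 3 lower in cKO libraries out of 53 tested, where 5.7% of all genes were called lower. *Wnt8b*, a Wnt ligand gene of the cortical hem, was at 151 to 179 CPM in Ctrl and at 223 to 269 CPM in cKO libraries. Its log2 fold change was 0.57 ± 0.09 (SE), with an adjusted p of 0.0030 by edgeR, and its call was kept in 11 of 11 alternatives. All 8 genes of the roof plate and cortical hem list had positive log2 fold changes, with a median of 0.28, and 2 of them, *Wnt8b* and *Lmx1a*, were called. The summed level of these 8 genes was 400.0 to 442 CPM in Ctrl and 501 to 617 CPM in cKO libraries.

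The genes for antagonists that bind BMPs outside the cell moved in both directions in cKO libraries, with 2 of 11 higher and 2 lower. The genes for gremlin (*Grem1*) and follistatin (*Fst*) rose, by log2 0.36 (adjusted p = 0.0348) and 0.65 (adjusted p = 0.0273). The genes for chordin (*Chrd*) and chordin-like 1 (*Chrdl1*) fell, by 0.42 (adjusted p = 0.0472) and 0.37 (adjusted p = 0.0425) on the log2 scale, all by edgeR. Of these 4 calls, *Chrd* was kept in 2 of 11 alternatives, *Grem1* and *Chrdl1* in 6 and *Fst* in 7. Among the 6 target genes, *Id4* was called lower, with a log2 fold change of -0.46 ± 0.10 (SE) and an adjusted p of 0.0204 by edgeR, in contrast to the positive values of *Id1*, *Id3* and *Msx1*. That call was kept in 7 of 11 alternatives and was lost without Ctrl replicate 3, cKO replicate 1 or cKO replicate 3 (adjusted p = 0.0598, 0.0666 and 0.0754, edgeR) and with the replicate block (adjusted p = 0.0569). No gene for a receptor, a SMAD transducer or an inhibitor of the receptor or SMAD step was called. *Smad4*, whose product carries activated SMADs to the nucleus, had the smallest adjusted p among the transducers (log2 0.20, adjusted p = 0.0579, edgeR). *Bmp5* had the value closest to the threshold among the other ligand genes (log2 0.30, adjusted p = 0.0533, edgeR).

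Markers of other tissue moved with the cKO group too. All 8 genes of a list for mesenchyme and meninges had positive log2 fold changes, with a median of 0.33, and 3 of them, *Col1a2*, *Col3a1* and *Pdgfrb*, were called higher. The summed level of that list was 686 to 785 CPM in Ctrl and 866 to 1062 CPM in cKO libraries, without overlap. Mesenchyme of the head also expresses BMP ligands and *Msx1*, and the part of these cells in the values of *Bmp4*, *Bmp7* and *Msx1* was not tested. In pooled tissue, a change in the number of cells of a type and a change in RNA per cell cannot be told apart.

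**Figure D3:**
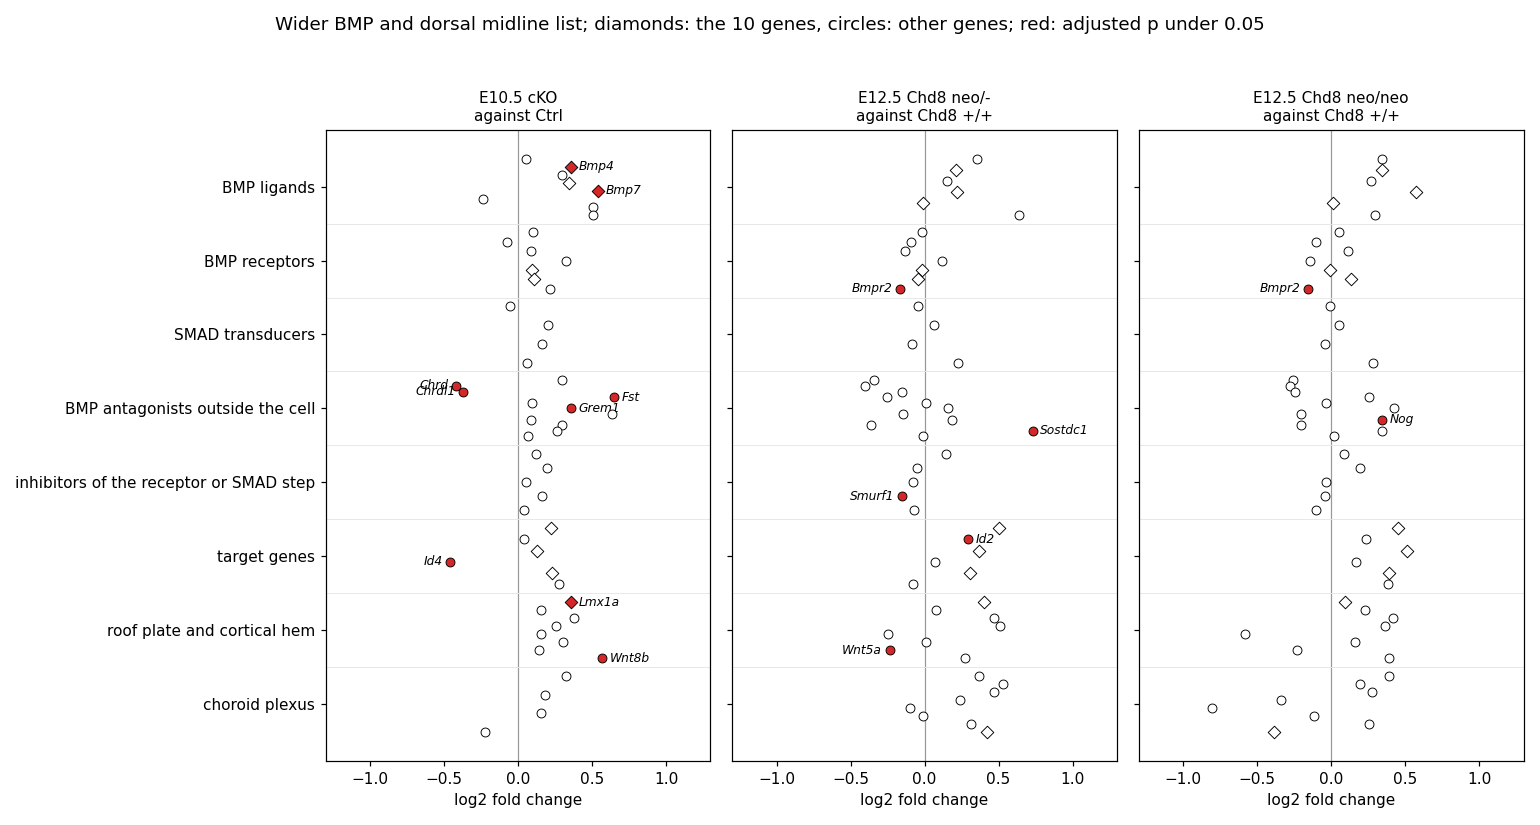
Log2 fold changes of the wider list of 57 genes, in rows by role, for cKO against Ctrl at E10.5 and for neo/- and neo/neo against +/+ at E12.5. Diamonds are the 10 genes, circles the others, and red symbols passed an adjusted p of 0.05, which in the cKO panel were 6 higher and 3 lower.

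At E12.5, the question was whether the graded series of alleles altered the same genes. None of the 10 genes was called in any of the 6 comparisons among the 4 genotypes by edgeR. Their fitted changes against +/+ were positive for 8 of 10 in neo/neo, 7 in neo/- and 5 in +/- libraries. The median log2 fold changes were 0.239, 0.26 and 0.0149, against 0.00529, 0.00107 and 0.00123 over all genes tested. For the 10 genes, an upward shift without calls was thus also seen in neo/neo and neo/- libraries. The other 45 tested genes of the wider list showed less of it. Their median was 0.087 in neo/neo (26 positive, 19 negative) and 0.0062 in neo/- libraries (23 positive, 22 negative) against +/+. The share of all 18810 genes called was 0.0213% for +/- against +/+, 8.16% for neo/neo against +/+ and 11.5% for neo/- against +/+. It was 5.28% for neo/neo against +/-, 5.43% for neo/- against +/- and 0.0159% for neo/- against neo/neo. Without adjustment, the number of the 10 with a p under 0.05 by edgeR was 0 for +/- (6.33% of all genes), 3 for neo/neo (25.2%) and 1 for neo/- (26.5%) against +/+. It was 4 for neo/neo (23.2%) and 1 for neo/- (22.5%) against +/-, and 0 for neo/- against neo/neo (8.43%). DESeq2 called 3 of the 10 in neo/neo (16.6% of all genes with an adjusted p) and 1 in neo/- (18.1%) against +/+. Against +/- it called 2 in neo/neo (11.9%) and 1 in neo/- (12.3%), and it called 0 for +/- against +/+ (0.0893%) and for neo/- against neo/neo (0.167%).

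*Id1* came closest to a call at E12.5. It was at 11.5, 13.4 and 8.50 CPM in +/+ and at 11.4, 11.2 and 10.02 CPM in +/- libraries. In neo/neo libraries it was at 16.3, 16.7 and 12.6 CPM and in neo/- libraries at 14.5, 15.2 and 17.6 CPM. The neo/- libraries were all above those of +/+ and +/-, which was so for 16.4% and 16% of all genes, and those of neo/neo were all above +/- (13.4% of all genes). The log2 fold change against +/+ was 0.50 ± 0.15 (SE) in neo/- (adjusted p = 0.0519 by edgeR) and 0.45 ± 0.15 (SE) in neo/neo (adjusted p = 0.0867 by edgeR). In neo/- the *Id1* value passed the threshold when only the 2 groups were fitted (adjusted p = 0.0455), when +/+ replicate 2 or neo/neo replicate 3 was left out (adjusted p = 0.0165 and 0.0281), with the replicate block (adjusted p = 0.0404) and with DESeq2 (adjusted p = 0.0067). The neo/neo value passed it without +/+ replicate 2 (adjusted p = 0.0434, edgeR) and with DESeq2 (adjusted p = 0.0195).

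*Id3* showed a like order of levels, at 41.1, 35.7 and 30.5 CPM in +/+ and 56.3, 57.6 and 39.3 CPM in neo/neo libraries. Its neo/- libraries were at 41.0, 49.9 and 47.9 CPM. The third neo/neo library lay within the range of +/+ and the lowest neo/- library lay just below the highest of +/+. The log2 fold change was 0.51 ± 0.18 (SE) in neo/neo (adjusted p = 0.121 by edgeR) and 0.37 ± 0.18 (SE) in neo/- (adjusted p = 0.242 by edgeR). *Id2*, another gene of the family that is outside the 10, was called higher in neo/- libraries (log2 0.29 ± 0.08, adjusted p = 0.0360 by edgeR, kept in 13 of 19 alternatives).

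*Bmp6* had the largest log2 fold change of the 10 in neo/neo libraries against +/+, at 0.57 ± 0.20 (SE), which did not pass the test (adjusted p = 0.101 by edgeR). Its levels were 4.54, 3.96 and 3.85 CPM in +/+ and 8.06, 6.21 and 4.22 CPM in neo/neo libraries, so the neo/neo libraries were spread over nearly 2-fold and replicate 3 overlapped with +/+. Without that library *Bmp6*, *Id1* and *Id3* were each called in neo/neo (adjusted p = 0.00736, 0.0264 and 0.0279, edgeR). In neo/- libraries *Bmp6* was at 4.22, 4.98 and 5.15 CPM, with a log2 fold change of 0.22. *Bmp4* was at 6.44, 5.12 and 4.76 CPM in +/+, at 7.63, 7.35 and 5.78 CPM in neo/neo and at 6.21, 6.66 and 6.06 CPM in neo/- libraries, which overlapped.

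*Bmp7*, *Bmpr1a* and *Bmpr1b* changed little across the genotypes and were called in no comparison. *Bmp7* was between 24 and 30.5 CPM in all 12 libraries, and its 95% interval for neo/- against +/+ ran from -0.17 to 0.15 on the log2 scale. For *Bmpr1a* the same interval ran from -0.11 to 0.08 and for *Bmpr1b* from -0.23 to 0.14. *Bmpr2*, a type II receptor gene of the wider list, was called lower in neo/neo (log2 -0.16, adjusted p = 0.0320) and neo/- libraries (log2 -0.17, adjusted p = 0.0181), at 195 to 202 CPM in +/+, 169 to 185 in neo/neo and 173 to 181 in neo/- libraries. These calls, by edgeR, were kept in 14 and 15 of 19 alternatives. Of the 7 receptor genes in the wider list, 2 were called lower in neo/neo against +/- (28.6%, beside 5.28% of all genes). In neo/- against +/-, 1 was called higher and 2 lower (42.9%, beside 5.43% of all genes).

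*Msx1* and *Lmx1a* were not called, and for both genes each mutant group overlapped +/+. *Msx1* was at 16, 12.9 and 11 CPM in +/+ and at 16.5, 21.1 and 14.5 CPM in neo/neo libraries. Its neo/- libraries lay close together, at 15.91 to 17.01 CPM. Its log2 fold change against +/+ was 0.39 in neo/neo and 0.30 in neo/- (adjusted p = 0.27 and 0.392 by edgeR). *Lmx1a* was at 15.4, 13.3 and 11.2 CPM in +/+, at 18.5, 11.8 and 12.5 CPM in neo/neo and at 15, 18.8 and 18.9 CPM in neo/- libraries. Its log2 fold change against +/+ was 0.09 in neo/neo and 0.40 in neo/- (adjusted p = 0.844 and 0.294 by edgeR). The neo/- value of *Lmx1a* was called in 1 of 19 alternatives. In +/- libraries both depended on replicate 2, the library with the thalamic genes. It had the highest level of *Msx1* (20.5 CPM against 13.6 and 12.7) and *Lmx1a* (19.2 CPM against 12 and 12.8). The same library had the highest summed mesenchyme and meninges list at E12.5, at 1134 CPM, against 553 and 732 CPM in the other +/- libraries. The part of either tissue in these values was not tested. The log2 fold change of *Msx1* for +/- against +/+ was 0.23 with that library and -0.02 without it, and that of *Lmx1a* was 0.14 and -0.10. *Bmp4* moved from -0.14 to -0.45, none of these values being called. Without that library *Bmp4* was called higher in neo/neo (log2 0.78, adjusted p = 0.0238) and neo/- (log2 0.65, adjusted p = 0.0312) against +/- by edgeR.

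*Ttr* was the most variable of the genes at E12.5. It was at 70.2, 65.8 and 28.9 CPM in +/+, at 67.3, 65.6 and 78.0 CPM in +/-, at 48.3, 14.7 and 63.5 CPM in neo/neo and at 71.7, 66.8 and 81.9 CPM in neo/- libraries. The low libraries were +/+ replicate 3 and neo/neo replicate 2. All neo/neo libraries were below those of +/- (12.1% of all genes) and below those of neo/- (7.99% of all genes had neo/- above neo/neo), and neither difference was called. The log2 fold change for neo/neo against +/+ was -0.39, with a 95% interval from -1.54 to 0.76, and it was 0.03 without neo/neo replicate 2. *Kcne2* and *Htr2c*, genes of the same epithelium and among those most like *Ttr* in these libraries, were lowest in the same pair. Other genes of the choroid plexus list went otherwise. *Folr1* was at 2.17 to 2.72 CPM in neo/neo and 1.55 to 2.29 CPM in +/+ libraries, and *Aqp1* was lowest in a +/- library (2.32 CPM). For neo/neo against +/+, 4 genes of the list had positive and 4 negative log2 fold changes, with a median of 0.04. How much choroid plexus each dissection took was not measured.

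In the wider list at E12.5, 1 gene was called higher and 1 lower against +/+ by edgeR of 55 tested in neo/neo, 2 higher and 3 lower in neo/-, and none in +/- libraries. These were 3.64% of the list in neo/neo and 9.09% in neo/-, beside 8.16% and 11.5% of all genes, so the share in neo/- is near that of all genes. Besides *Bmpr2*, *Nog*, which encodes the BMP antagonist noggin, was higher in neo/neo (log2 0.34 ± 0.10, adjusted p = 0.0438, kept in 7 of 19 alternatives). *Sostdc1*, which encodes another secreted antagonist, was higher in neo/- (log2 0.73 ± 0.20, adjusted p = 0.0308, kept in 13 of 19). *Wnt5a* was lower (log2 -0.24 ± 0.07, adjusted p = 0.0423, kept in 9 of 19), as was *Smurf1*, the gene for a ubiquitin ligase that acts on SMADs (log2 -0.15 ± 0.04, adjusted p = 0.0342, kept in 14 of 19). In the choroid plexus list, in which no gene was called, *Folr1* had the smallest adjusted p (neo/- log2 0.47, adjusted p = 0.0893, edgeR). The summed roof plate and cortical hem list was at 225 to 280.7 CPM in +/+ and at 285 to 311 CPM in neo/- libraries, without overlap, as seen in 16.4% of single genes. In neo/neo libraries it was at 362, 301 and 237 CPM, which overlapped +/+. The summed list for mesenchyme and meninges was at 665 to 838 CPM in +/+ and 553 to 1134 CPM in +/- libraries. It was at 634 to 729 CPM in neo/- and 536 to 691 CPM in neo/neo libraries, with overlap. Genes of blood were higher in neo/- libraries, with 3 of 5 called and sums of 3912 to 6510 CPM against 2647 to 3404 CPM in +/+, and their part in the values of the 10 genes was not tested.

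**Figure D4:**
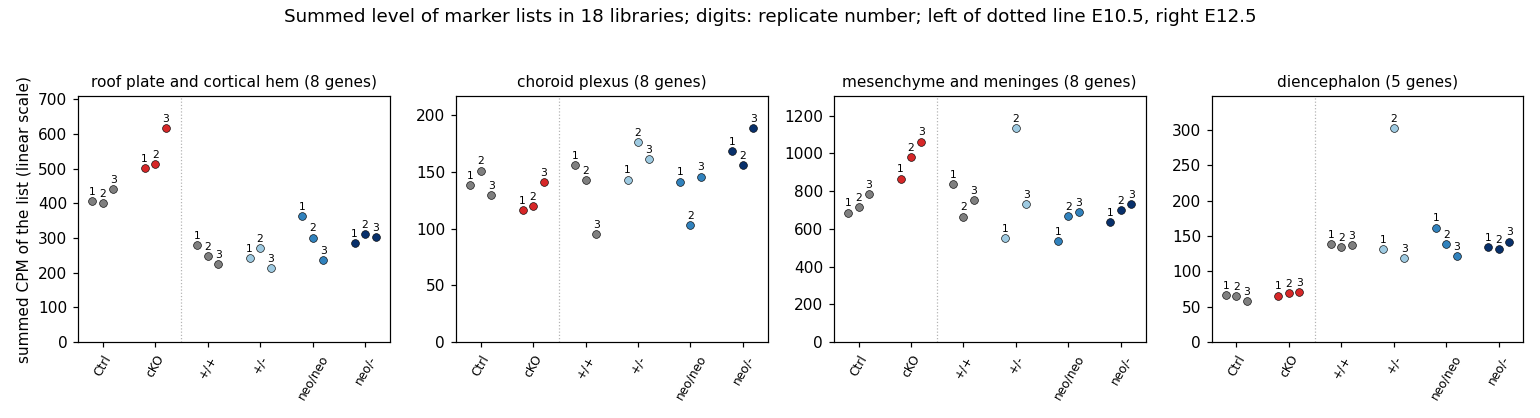
Summed levels in CPM of 4 gene lists in each of the 18 libraries, with replicate numbers beside the points. The roof plate and cortical hem list (with *Lmx1a*) and the mesenchyme list were higher in all 3 cKO than in all 3 Ctrl libraries. The choroid plexus list was lowest at E12.5 in +/+ replicate 3 and neo/neo replicate 2. *Ttr* is part of that sum, at 70.2 of 156 CPM in +/+ replicate 1 and 14.7 of 103 CPM in neo/neo replicate 2. The sum is therefore not a measure apart from *Ttr*. The diencephalon list stood out in +/- replicate 2 at 303 CPM, and the mesenchyme list was highest at E12.5 in the same library, at 1134 CPM.

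*Bmp7* was the 1 gene of the 10 whose cKO effect at E10.5 differed from the neo/- effect at E12.5 in a fit of all 18 libraries. The difference of the log2 fold changes was 0.55 ± 0.12 (SE), with an adjusted p of 0.00919 by edgeR, where 6.79% of all 19565 genes tested were called, and the call was kept in 22 of 22 alternatives. For the other 8 genes tested in both, the 95% intervals of the difference included 0. That of *Lmx1a*, for example, ran from -0.62 to 0.53. The age, dissection, allele and cells in which *Chd8* was lowered all differ between these 2 contrasts and cannot be told apart.

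Over the 12 libraries at E12.5, several of the genes went up and down together. After the mean of each genotype was removed, Pearson's r of log2 CPM was 0.89 for *Bmp6* and *Id3*, 0.89 for *Bmp4* and *Id3*, 0.89 for *Bmp4* and *Msx1* and 0.85 for *Id3* and *Msx1*. *Lmx1a* correlated with *Bmp6* at 0.76 and with *Bmp4* at 0.74. *Bmp7* went less with the other ligands, with r of 0.48 to *Bmp6* and 0.22 to *Bmp4*, and *Ttr* had r between -0.34 and 0.41 with each of the other 9. These values are descriptions over 12 libraries that share tissue and dissection.

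The genes most like each member over these libraries, out of all genes tested, were found by Pearson's r of log2 CPM. *Wnt8b* was first for *Id3* (0.95) and for *Bmp6* (0.94), followed for *Bmp6* by *Id3* (0.92) and *Gm43362* (0.92), and for *Id3* by *Gm37022* (0.94) and *Mettl2* (0.93). For *Bmp4* the nearest were *Fam181a* (0.93), *Id3* (0.92) and *Anxa9* (0.91). *Ttr* was nearest to *Htr2c* (0.97), *Rsph4a* (0.96) and *Kcne2* (0.95). *Msx1* was nearest to *Cpz* (0.93), *Slc26a8* (0.93) and *Prkab2* (0.92), *Lmx1a* to *Samd11* (0.92), *Col4a3* (0.92) and *Catspere2* (0.90), and *Id1* to *Lias* (0.94), *Ddx59* (0.93) and *Mylpf* (0.91). The nearest genes of *Bmpr1a* were *Polr2b* (0.94), *Tpx2* (0.92) and *Zfp472* (0.90), those of *Bmpr1b* were *Klhl21* (0.94), *Stc2* (0.92) and *Slc16a1* (0.91), and those of *Bmp7* were *Slc12a2* (0.84), *Gm17530* (0.83) and *Snord17* (0.81).

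Between the control libraries of the 2 ages, *Ttr* was higher at E12.5 and all 3 ligand genes and all 3 target genes were lower. Of the 10, 8 were called, 2 higher and 6 lower in E12.5 *Chd8* +/+ than in E10.5 Ctrl libraries, where 67.5% of all 18580 genes tested were called, so a call is common here. Age, dissection, pooling of embryos and control genotype differ together in this comparison and cannot be told apart. The number of *Ttr* counts rose from 24 over the 3 Ctrl libraries to 7731 over the 3 +/+ libraries, a ratio of 372 with a 95% interval for counting error alone from 250.01 to 581. Of the 8 genes of the choroid plexus list, which includes *Ttr*, 5 were called higher at E12.5, among them *Htr2c* and *Kcne2*, and 2 were called lower.

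The falls were largest for *Msx1* (log2 -2.73 ± 0.12), *Id3* (-2.26 ± 0.09), *Bmp6* (-2.05 ± 0.11) and *Bmp4* (-1.84 ± 0.12), with adjusted p of 8.09e-09, 1.34e-09, 1.46e-08 and 6.03e-08 by edgeR. *Id1* (-1.14 ± 0.13) and *Bmp7* (-1.10 ± 0.09) fell by less. *Bmpr1b* was called higher, at log2 0.55 ± 0.09, and so were *Bmpr2* (1.40 ± 0.07) and the SMAD transducer genes *Smad1*, *Smad4*, *Smad5* and *Smad9* of the wider list. *Bmpr1a* (log2 -0.08, 95% interval from -0.22 to 0.05) and *Lmx1a* (-0.24, from -0.51 to 0.02) were not called.

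Per kb of exon, *Id3* was the highest of the 10 genes in Ctrl libraries at E10.5, at 98.1 ± 2.39 CPM per kb (SD, n = 3). *Bmpr1a* (35.9 ± 0.35), *Msx1* (29.2 ± 2.39), *Id1* (21.7 ± 0.65) and *Bmp7* (14.5 ± 1.74) followed. *Bmp4* (8.99 ± 0.80) and *Bmp6* (7.25 ± 0.75) came next, then *Lmx1a* (4.75 ± 0.54), *Bmpr1b* (3.34 ± 0.34) and *Ttr* (0.121 ± 0.079), and no neighbours in this order overlapped. At E12.5 in +/+ libraries the order was *Ttr* (45.1 ± 18.6), *Bmpr1a* (33.1 ± 1.44), *Id3* (19.98 ± 2.96), *Id1* (9.59 ± 2.14), *Bmp7* (6.58 ± 0.42), *Bmpr1b* (4.76 ± 0.26), *Msx1* (4.29 ± 0.83), *Lmx1a* (3.92 ± 0.62), *Bmp4* (2.45 ± 0.40) and *Bmp6* (1.71 ± 0.15). The libraries of *Ttr* and *Bmpr1a* overlapped, and so did those of *Bmpr1b*, *Msx1* and *Lmx1a*, while the other neighbours did not. All these genes except *Ttr* at E10.5 had at least 149 counts in every library.

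**Figure D5:**
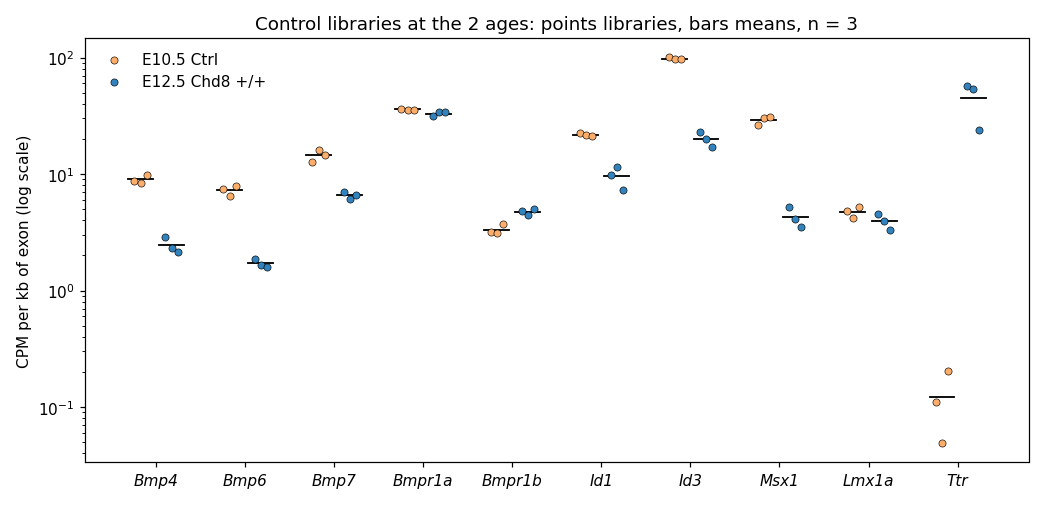
Levels per kb of exon (CPM per kb, log axis) in the 3 E10.5 Ctrl and 3 E12.5 *Chd8* +/+ libraries, with points for libraries and bars for means, each age scaled on its own. *Ttr* lies at 0.121 at E10.5 and 45.1 at E12.5, while *Bmpr1a* and *Lmx1a* lie at nearly the same level at both ages.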

How the data were processed

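Per the labels and the study's methods, mRNA libraries were sequenced as paired reads, trimmed with Trim Galore, aligned to GRCm38 with TopHat2 and counted on Ensembl genes with featureCounts. What the authors deposited is a table of unnormalized read counts for each age, by gene and sequencing run. The kit kept strand, but the E12.5 counting command set no strand option (the E10.5 command is not given in the sources used here), so *Bmp4*, *Bmpr1a* and *Ttr*, which share 89, 290 and 11 exonic bases with genes on the other strand, may hold a few reads of those. Per the methods, replicates came from different litters.

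Runs were summed per library. In R 4.3.3, genes were filtered with filterByExpr, scaled by TMM and tested with edgeR 4.0.16 (robust quasi-likelihood, two-sided), with p-values adjusted by Benjamini-Hochberg over all genes tested. The 12 E12.5 and 6 E10.5 libraries were fitted apart. Intervals are 95%. DESeq2 1.42.0, other scalings, no filter, a replicate block, *Xist* level as a covariate (at E12.5 only), other sets of libraries and each library left out were alternatives. *Xist*, an RNA of female cells, was at 1.46 to 2.40 CPM in neo/- libraries and reached 2043 CPM in +/+ and 1458 CPM in +/- libraries. At E10.5 it was at 3.09 to 2141 CPM in Ctrl and 708 to 1069 CPM in cKO libraries. The groups were thus not matched for sex, and its part in the E10.5 calls was not tested. For some of the comparisons, the fits were run on simulated data with changes larger than those of the 10 genes between genotypes. Those runs do not show how often changes as small as these are found. Deviations of same-numbered libraries from their group means had correlations over 0.1 in every pair only for neo/neo and +/- (0.108, 0.195 and 0.199). Of the identifiers, 46005 matched a symbol and 598 did not.

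The 10 genes and all lists were chosen with earlier results of these data known. From the wider list, genes called in a mutant against its own control were named, the gene with the smallest adjusted p where a role had none called, and 3 most similar genes per member. The surface ectoderm and eye lists were also computed: 0 of 5 and 1 of 5 tested genes were called in cKO libraries, the latter lower, as were 1 higher of 7 endothelial, 0 of 5 blood, 0 of 5 diencephalic and 1 lower of 5 ventral genes.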

Additional observations from a re-analysis of the deposited data

Results flagged for a closer look

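4 genes were flagged because the cKO effect at E10.5 differed from the neo/- effect at E12.5 in a test of the difference itself (edgeR, all 18 libraries). The difference of the log2 fold changes was 0.55 for *Bmp7* (adjusted p = 0.00919), 0.64 for *Bmper* (adjusted p = 0.0248), 0.24 for *Smad5* (adjusted p = 0.0327) and -0.53 for *Id4* (adjusted p = 0.0307). *Bmp7* kept this call in 22 of 22 alternatives, *Bmper* in 17, *Id4* in 14 and *Smad5* in 13. *Bmper* and *Smad5*, which encode a secreted BMP-binding protein and a SMAD transducer, were named after their values were seen. With 3 libraries in each group, no group was large enough to be tested for outlying libraries.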

How the results depend on the processing

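Of the 158 recomputed counts of called genes, 133 were within 1.5 times the reported count. The 8 calls between the ages, the single call in the difference of effects and the absence of calls for +/- against +/+ and neo/- against neo/neo were among them. For cKO against Ctrl, where 3 were called, DESeq2, no filter and the replicate block each gave 5, the added genes being *Bmp6* and *Msx1*; no label ties the replicate numbers of these 2 groups, and the 3 pairs correlated at -0.103, -0.018 and 0.114. Leaving out 1 library gave 1 to 2. For neo/neo against +/+, none became 3 with DESeq2 and 0 to 3 with 1 library left out. For neo/- against +/+ it became 1 with DESeq2, 1 with the replicate block, 3 with only the 2 groups and 0 to 1 with 1 library left out. Against +/-, neo/neo gave 2 with DESeq2 and 0 to 3 with 1 library left out, and neo/- gave 1 with DESeq2, 1 with only the 2 groups and 0 to 1 with 1 library left out. The block changed no other count of calls. The cause of these changes was not tested. Genes of the wider list were put through the same alternatives after the data were seen.

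Values that changed sign were uncalled in the reported fit. *Bmpr1b* for +/- against +/+ was 0.0064 with DESeq2, 0.0057 with RLE scaling, 0.00032 with the replicate block and 0.0037 with *Xist*. *Bmp7* for neo/neo against +/+ was -0.00016 with no filter. With *Xist* as a covariate, *Lmx1a* for neo/neo against +/- was 0.026, *Ttr* for neo/- against +/- was -0.21 and *Bmpr1a* for neo/- against neo/neo was 0.017. With 1 library left out, log2 fold changes that changed sign ranged as follows. For +/- against +/+, -0.45 to 0.039 for *Bmp4*, -0.22 to 0.089 for *Bmp6*, -0.0085 to 0.055 for *Bmpr1a*, -0.092 to 0.051 for *Bmpr1b*, -0.19 to 0.13 for *Id1*, -0.18 to 0.10 for *Id3*, -0.098 to 0.26 for *Lmx1a* and -0.018 to 0.39 for *Msx1*. For neo/neo against +/+, -0.098 to 0.081 for *Bmp7*, -0.054 to 0.018 for *Bmpr1a*, -0.14 to 0.21 for *Lmx1a* and -0.83 to 0.026 for *Ttr*. For neo/- against +/+, -0.054 to 0.025 for *Bmp7*, -0.058 to 0.0083 for *Bmpr1a* and -0.099 to 0.027 for *Bmpr1b*. For neo/neo against +/-, -0.16 to 0.024 for *Bmp7*, -0.28 to 0.19 for *Lmx1a* and -0.012 to 0.40 for *Msx1*. For neo/- against +/-, -0.099 to 0.048 for *Bmpr1b*, -0.058 to 0.32 for *Msx1* and -0.024 to 0.14 for *Ttr*. For neo/- against neo/neo, -0.096 to 0.083 for *Bmp7*, -0.028 to 0.019 for *Bmpr1a*, -0.0599 to 0.13 for *Id1* and -0.19 to 0.082 for *Msx1*. For cKO against Ctrl, -0.00059 to 0.26 for *Id3*. For the cKO effect less the neo/- effect, -0.0012 to 0.23 for *Bmp4*, -0.16 to 0.071 for *Lmx1a* and -0.24 to 0.048 for *Msx1*. With 3 libraries a group, the 95% intervals for neo/- against +/+ ran from -0.10 to 0.89 for *Lmx1a* and from -0.72 to 1.56 for *Ttr*.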
